A study of Mus musculus with 8 samples.

Results

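The genes described here are the nuclear-encoded subunits of the mitochondrial respiratory chain and ATP synthase. They were taken from the gene symbols alone: symbols that begin with Nduf followed by a, b, c, s or v and a digit (complex I), Sdha to Sdhd (complex II), symbols that begin with Uqcr (complex III), Cox4 to Cox8 (complex IV) or Atp5 (complex V). This gave 85 of the 17164 genes measured, with 40 in complex I, 4 in complex II, 8 in complex III, 16 in complex IV and 17 in complex V. The table uses older symbols for ATP synthase, such as Atp5h for subunit d. The rule leaves out Cyc1 of complex III, Ndufab1 of complex I and the ATP synthase inhibitor Atpif1, which are given separately. Subunits encoded in mitochondrial DNA were not analysed here.

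Livers of male C57BL/6 mice were sequenced, with 2 libraries from each of 4 groups, drawn at random from 6 mice per group. In DEN+CCl4 mice, the liver carcinogen diethylnitrosamine (DEN, 0.67%) was injected intraperitoneally 2 weeks after birth, and injections of the hepatotoxin carbon tetrachloride (CCl4, 20%, dissolved in olive oil) began at 8 weeks by the same route. DWYG-M and DWYG-H mice had the same DEN and CCl4 and were also given the preparation DWYG from week 17, at the dose equivalent to clinical use (DWYG-M) or at 2 times it (DWYG-H). Saline stood in for DEN in control mice, and for them neither CCl4 nor olive oil is mentioned. All were killed at 22 weeks of age. The labels do not say whether tumour or surrounding liver was sampled.

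The respiratory chain passes electrons from NADH (complex I) and succinate (complex II) through coenzyme Q, complex III and cytochrome c to oxygen at complex IV, and complexes I, III and IV pump protons that drive ATP synthesis by complex V. Most subunits are encoded in the nucleus and are made in matched amounts, and the factors NRF1, GABPA (an ETS protein) and YY1 are known to bind many of their promoters. Hepatocytes are rich in mitochondria, which carry fatty acid oxidation, the urea cycle and part of gluconeogenesis in the liver.

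Libraries held between 17345627 and 19191382 estimated reads. Hepatocyte markers were abundant in every library, with a summed level of 107600 to 152600 TPM (transcripts in each 1000000) in DEN+CCl4 and 79770 to 89060 TPM in control livers. The 23 Mup and Alb genes, which encode secreted hepatocyte proteins, made up 9.97% and 9.98% of TPM in DEN+CCl4, 12.4% and 12.5% in DWYG-M, 11.4% and 12.4% in DWYG-H, and 32.7% and 34.1% in control livers. Because TPM sums to 1000000 in each library, this difference bears on every TPM below, and results are given on 2 scales. The main scale is CPM, the reads in each 1000000 of a library, after TMM scaling, which sets the bulk of genes level between libraries and is used for every test unless another is named; TPM is used to compare levels between genes. DEN+CCl4 replicate 2 stood apart in holding skeletal muscle transcripts, with 114 TPM of Acta1, 102 TPM of Tnnt3, 58.2 TPM of Mb and 55.5 TPM of Ckm. The 11 muscle markers summed to 439 TPM there, against 3.72 TPM in DEN+CCl4 replicate 1 and 1.6 to 3.0 TPM in the libraries of the other groups.

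In DEN+CCl4 livers, nuclear respiratory chain genes were lower than in control livers relative to the typical gene, with a median log2 fold change of −0.56 on the TMM scale that moved to 0.02 on TPM. The median over all 11606 genes tested was −0.01 on the TMM scale and 0.50 on TPM. The members therefore lay 0.54 below the median gene on the TMM scale and 0.48 below it on TPM. By edgeR's quasi-likelihood test, 31 of the 82 members tested fell (adjusted p under 0.05), where 7.12% of all genes tested were called lower. Only Ndufa4l2 rose, where 15.1% of all genes were called higher. On TPM, limma called 0 members lower (against 1.16% of all genes) and 3 higher (against 45.4%), with 0 lower and 6 higher at an unadjusted p under 0.05. On the main scale edgeR gave 59 lower and 1 higher at an unadjusted p under 0.05, against 14.9% and 21.1% of all genes. In bulk tissue, fewer cells of a type and less RNA per cell cannot be told apart.

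**Figure D1:**
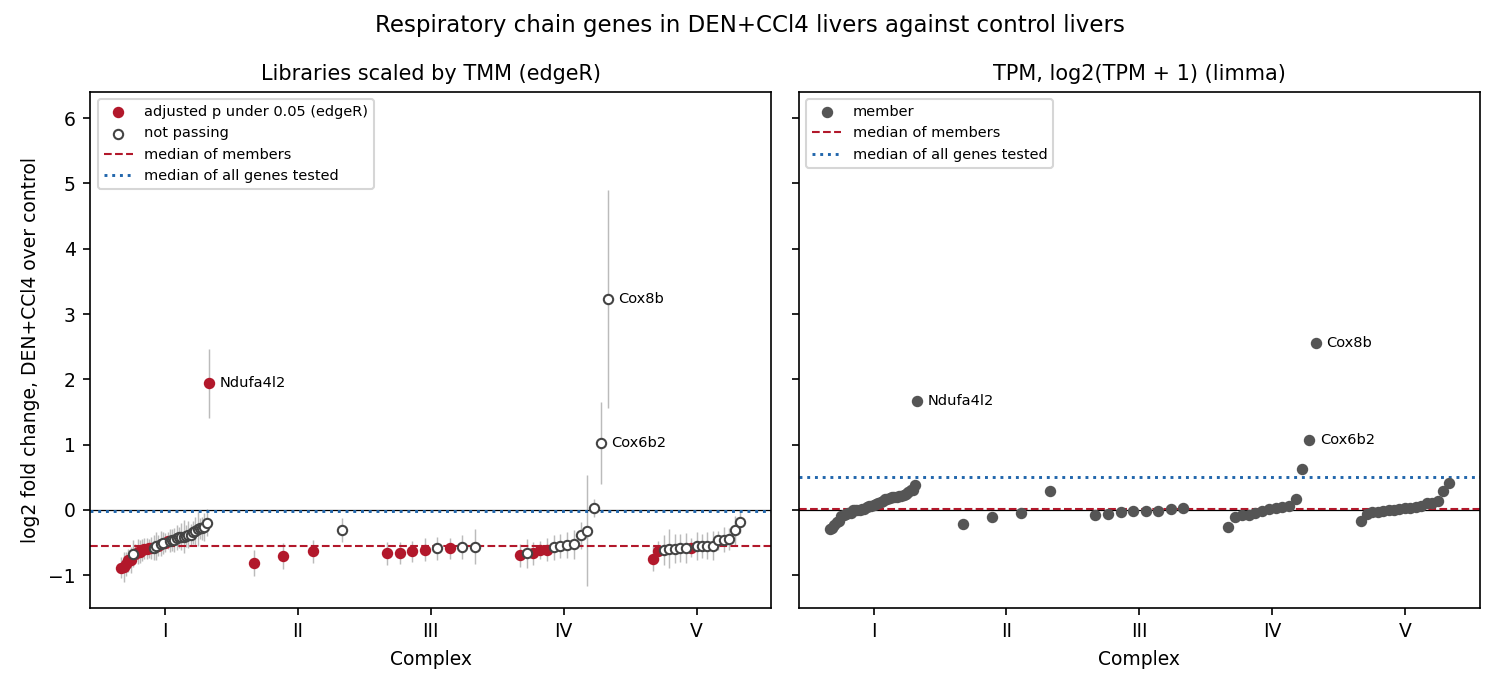
Log2 fold change of each tested member in DEN+CCl4 over control livers, by complex, on the TMM scale (left, with SE) and on TPM (right). On the left the median member sits at −0.56 and the median gene at −0.01; on the right they sit at 0.02 and 0.50, so the direction of the members depends on the scale, with the median member below the median gene on both.

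Of the 82 members tested, 78 had a negative fold change on the TMM scale and 36 on TPM. The middle 50% of members lay between −0.61 and −0.41 on the TMM scale. Both DEN+CCl4 libraries were below both control libraries for 69 of 82 members in TMM-scaled CPM, where 29.2% of all genes did the same. In TPM both DEN+CCl4 libraries were below both control libraries for 9 of 82 members (3.53% of all genes) and above them for 19 of 82 (68.8% of all genes). The difference between the scales followed the all-gene median: with library totals alone the median member was at −0.28 and the median gene at 0.27, and with the authors' own normalization factors they were at −0.61 and −0.07. The 3 remaining members, Ndufs6b, Cox6a2 and Cox4i2, were too low to test.

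**Figure D2:**
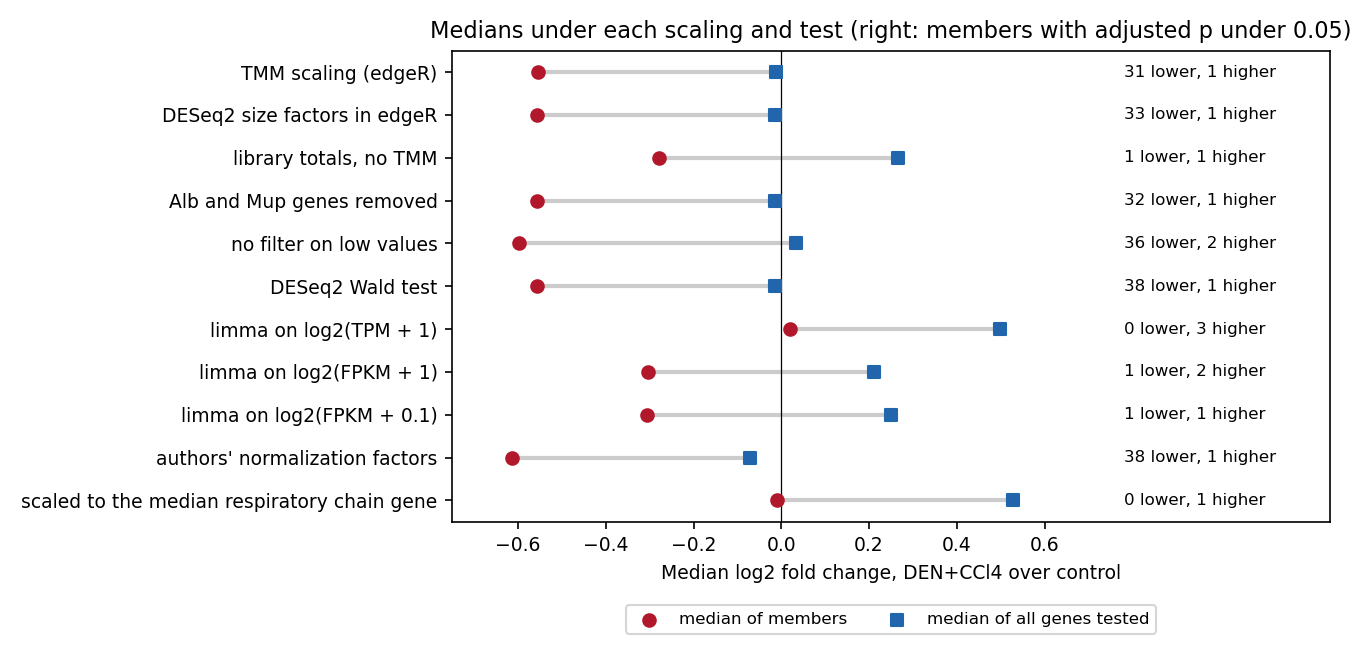
Median log2 fold change in DEN+CCl4 over control livers for the members (circles) and for all genes tested (squares) under each scaling and test, with the members called lower and higher at the right. The circles range from −0.61 to 0.02 and each lies to the left of its square.

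The number of calls depended on single libraries, and fewer members were called lower in each fit that left 1 library out. Such a fit leaves 1 library in a group and also changes the calls over all genes, so these counts are not compared. The median member was at −0.62 without control replicate 1 (all genes 0.002) and −0.48 without control replicate 2 (all genes −0.04). It was at −0.48 without DEN+CCl4 replicate 1 (all genes −0.02) and −0.59 without DEN+CCl4 replicate 2 (all genes −0.004). The median log2 fold change stayed between −0.62 and −0.48 when any 1 of the 8 libraries was left out. With DEN+CCl4 and control libraries alone in the fit, 3 members (Ndufb3, Ndufb9 and Ndufs7) were called lower. All genes called lower were 325 there, against 826 in the main fit. DESeq2 called 38 members lower (8.36% of all genes), of which 29 were among the 31 of the main fit.

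By complex, 16 of 39 tested members of complex I fell, 3 of 4 of complex II, 5 of 8 of complex III, 4 of 14 of complex IV and 3 of 17 of complex V. Of all genes tested, 7.12% were called lower. The median log2 fold changes on the TMM scale were −0.50 for complex I, −0.67 for complex II, −0.60 for complex III, −0.54 for complex IV and −0.56 for complex V. On TPM these medians were 0.08, −0.08, −0.01, 0.02 and 0.03 in the same order, each below the all-gene median of 0.50. Differences between complexes were not tested. All 85 members together made up 3.06% and 2.75% of TPM in DEN+CCl4, 3.09% and 3.61% in DWYG-M, 3.16% and 3.32% in DWYG-H, and 2.84% and 2.82% in control livers. Of the TPM outside the Mup and Alb genes, they made up 3.39% and 3.05% in DEN+CCl4, 3.53% and 4.12% in DWYG-M, 3.61% and 3.75% in DWYG-H, and 4.32% and 4.19% in control livers. DEN+CCl4 and control libraries overlapped by the first share, and both DEN+CCl4 libraries were below both control libraries by the second.

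**Figure D3:**
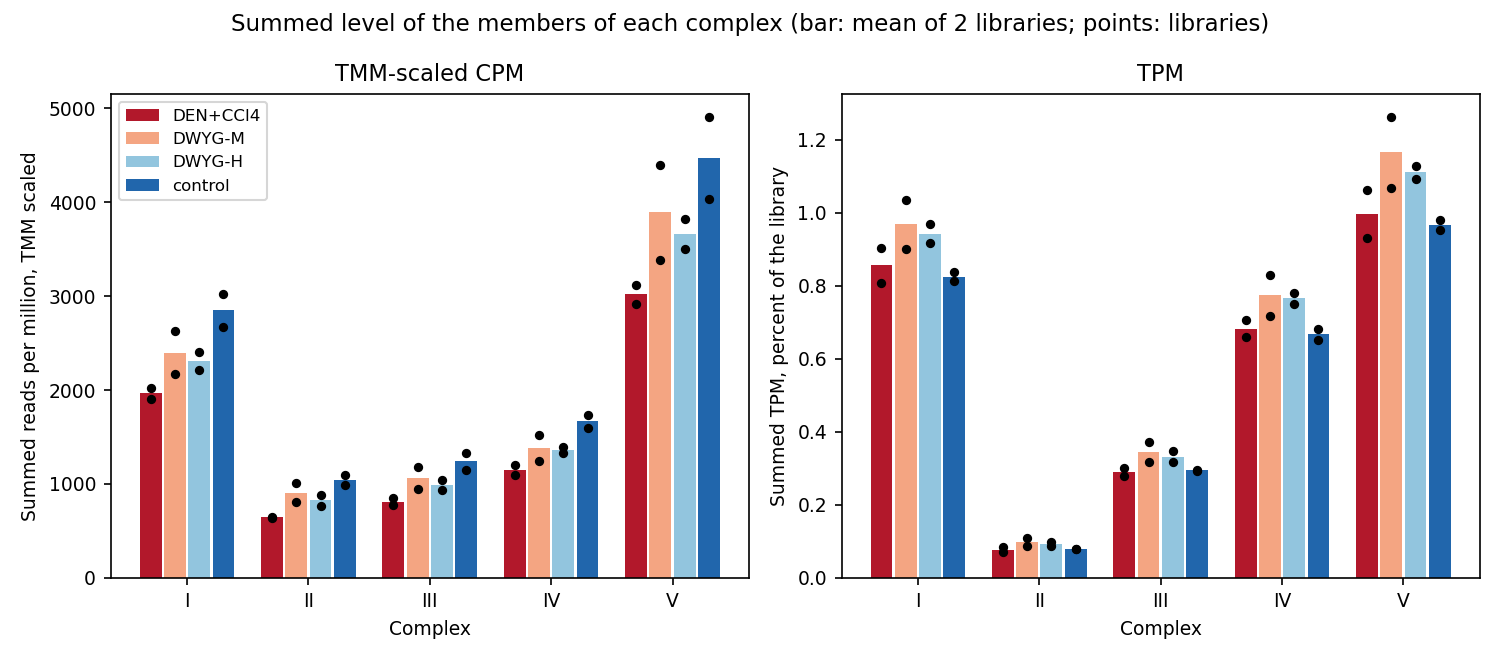
Summed level of the members of each complex per library (points) with the mean of 2 libraries (bars), in TMM-scaled CPM (left) and as a percent of TPM (right). On the left DEN+CCl4 has the lowest bar in every complex; on the right DEN+CCl4 and control libraries overlap in every complex and the bars of DWYG-M and DWYG-H are higher.

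The 3 members of complex I with the smallest p were accessory subunits of its membrane arm. Ndufb3 had 24.7 and 26.5 TMM-scaled CPM in DEN+CCl4, 29.3 and 35.6 in DWYG-M, 30.3 and 34.3 in DWYG-H, and 44.2 and 50.4 in control livers. It fell by 0.89 on the log2 scale in DEN+CCl4 (SE 0.16, edgeR adjusted p = 0.00855), the largest fall among the 82 members. All 6 libraries of mice given DEN and CCl4 lay below both control libraries. Ndufb9 had 78.8 and 78.9 in DEN+CCl4, 89.9 and 118 in DWYG-M, 92.1 and 108 in DWYG-H, and 130 and 151 in control livers, all in the same unit. This gave a log2 fold change of −0.83 (SE 0.18, edgeR adjusted p = 0.0173). Ndufb11 had 49.3 and 56.8 in DEN+CCl4, 61.0 and 68.0 in DWYG-M, 57.7 and 61.4 in DWYG-H, and 79.6 and 89.2 in control livers, and its log2 fold change was −0.67 (SE 0.15, edgeR adjusted p = 0.0180). None of these subunits had overlapping DEN+CCl4 and control libraries. The other 13 called members of complex I had log2 fold changes between −0.88 and −0.47 and included core subunits that carry redox centres, Ndufv1 at −0.78, Ndufs7 at −0.77 and Ndufv2 at −0.55. Ndufs1, the largest core subunit, was at −0.58 and did not pass (edgeR adjusted p = 0.0632). Ndufab1, the acyl carrier protein of complex I that the symbol rule leaves out, was at −0.42 (0.16 on TPM) and did not pass either (edgeR adjusted p = 0.106).

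Complex II links the chain to the tricarboxylic acid cycle. Sdha, the flavoprotein that oxidizes succinate, had 333 and 316 TMM-scaled CPM in DEN+CCl4, 420 and 505 in DWYG-M, 370 and 458 in DWYG-H, and 544 and 595 in control livers. Its log2 fold change in DEN+CCl4 over control livers was −0.81 (SE 0.20, edgeR adjusted p = 0.0232). Sdhb, the iron-sulfur subunit, had 83.4 and 91.3 in DEN+CCl4, 116 and 156 in DWYG-M, 108 and 132 in DWYG-H, and 130 and 154 in control livers. This gave a log2 fold change of −0.70 (SE 0.20, edgeR adjusted p = 0.0393), and DWYG-M and DWYG-H libraries overlapped those of control mice. Sdhd, a membrane anchor, had 129 and 110 in DEN+CCl4, 141 and 186 in DWYG-M, 160 and 153 in DWYG-H, and 185 and 188 in control livers. It fell by 0.64 on the log2 scale (SE 0.18, edgeR adjusted p = 0.0406). Sdhc, the other anchor, was at −0.31 and did not pass (edgeR adjusted p = 0.264).

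Complex III members had log2 fold changes between −0.66 and −0.56 on the TMM scale (median −0.01 on TPM), and Uqcr10, Uqcrh and Uqcrc1 did not pass. Uqcrq, a small membrane subunit, had 115 and 115 TMM-scaled CPM in DEN+CCl4, 136 and 164 in DWYG-M, 136 and 145 in DWYG-H, and 171 and 187 in control livers. Its log2 fold change was −0.64 (SE 0.16, edgeR adjusted p = 0.0264). Uqcrc2, a core protein, had 163 and 155 in DEN+CCl4, 195 and 240 in DWYG-M, 199 and 204 in DWYG-H, and 240 and 261 in control livers. This gave a log2 fold change of −0.66 (SE 0.17, edgeR adjusted p = 0.0284), and the DWYG-M library with 240 CPM reached the lower control library. Uqcrb had 68.0 and 72.4 in DEN+CCl4, 76.7 and 99.9 in DWYG-M, 79.2 and 94.0 in DWYG-H, and 108 and 114 in control livers, with a log2 fold change of −0.66 (SE 0.18, edgeR adjusted p = 0.0320). Uqcrfs1, the Rieske protein, fell by 0.61 and Uqcr11 fell by 0.59. Cyc1, the cytochrome of this complex that the symbol rule leaves out, was at −0.58 and did not pass (edgeR adjusted p = 0.10).

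Complex IV members that fell were small subunits and Cox5a. Cox7c, with the highest mean TPM of all members, had 100 and 102 TMM-scaled CPM in DEN+CCl4, 114 and 130 in DWYG-M, 133 and 132 in DWYG-H, and 157 and 151 in control livers. Its log2 fold change was −0.61 (SE 0.14, edgeR adjusted p = 0.0213). Cox7a2 had 78.6 and 69.1 in DEN+CCl4, 74.3 and 98.3 in DWYG-M, 84.8 and 77.95 in DWYG-H, and 116 and 124 in control livers. It fell by 0.70 on the log2 scale (SE 0.18, edgeR adjusted p = 0.0268), and the DEN+CCl4 libraries overlapped those of both DWYG groups. Cox7b had 73.6 and 64.8 in DEN+CCl4, 72.8 and 97.1 in DWYG-M, 101 and 89.5 in DWYG-H, and 114 and 106 in control livers, with a log2 fold change of −0.67 (SE 0.18, edgeR adjusted p = 0.0338). Cox5a, a subunit on the matrix side, fell by 0.61. Cox4i1, a subunit needed for assembly, was at −0.57 (edgeR adjusted p = 0.0641), and Cox8a, Cox6a1 and Cox6b1 were at −0.55, −0.53 and −0.39 without passing; each of the 4 was above 0 on TPM, by 0.01 to 0.17.

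In complex V, 17 of 17 members were negative on the TMM scale (7 of 17 on TPM) and 3 fell by edgeR's test. Atp5j, coupling factor 6 of the stalk, had 96.7 and 98.3 TMM-scaled CPM in DEN+CCl4, 108 and 130 in DWYG-M, 121 and 118 in DWYG-H, and 146 and 157 in control livers. This gave a log2 fold change of −0.63 (SE 0.15, edgeR adjusted p = 0.0236). Atp5h, subunit d of the stalk, had 80.0 and 88.7 in DEN+CCl4, 94.3 and 125 in DWYG-M, 93.1 and 110 in DWYG-H, and 130 and 154 in control livers. It fell by 0.75 (SE 0.19, edgeR adjusted p = 0.0284). Atp5l, subunit g, had 90.4 and 83.0 in DEN+CCl4, 102 and 122 in DWYG-M, 104 and 106 in DWYG-H, and 131 and 128 in control livers, with a log2 fold change of −0.58 (SE 0.15, edgeR adjusted p = 0.0303). The catalytic subunits Atp5a1 and Atp5b were at −0.58 and −0.59 with larger SE of 0.23 and 0.22 and did not pass (edgeR adjusted p = 0.106 and 0.0985). Of the 3 genes for the c ring, whose mature proteins are the same, Atp5g3 was at −0.62, Atp5g1 at −0.31 and Atp5g2 at −0.18, none of them past the test.

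**Figure D4:**
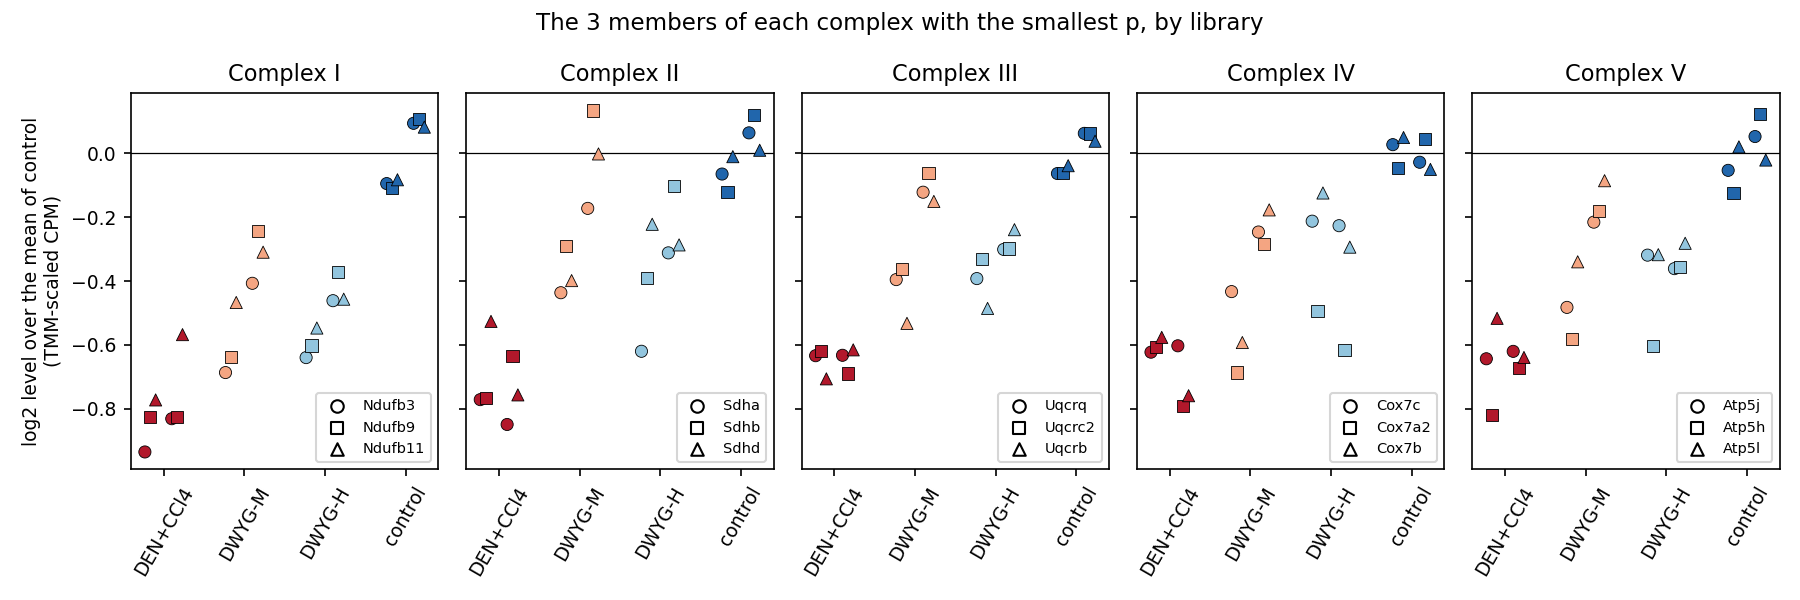
The 3 members of each complex with the smallest p in DEN+CCl4 against control, as log2 of TMM-scaled CPM over the mean of the 2 control libraries, 1 point per library. DEN+CCl4 points lie below both control points in every panel, and DWYG-M and DWYG-H points lie mostly between them; on TPM the median member did not lie below control.

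Each of these 15 calls was lost without at least 1 library, with highest adjusted p-values between 0.0577 for Ndufb3 and 0.165 for Sdhb, and each kept its direction, with log2 fold changes between −0.98 and −0.52. Without DEN+CCl4 replicate 2, the library with muscle transcripts, Ndufb3 was at −0.94 and still passed (edgeR adjusted p = 0.0249). The part of the muscle transcripts in these results was not tested.

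Ndufa4l2 was the 1 member that rose. It encodes a paralogue of Ndufa4 that is known as a target of hypoxia-inducible factor 1. Its symbol places it with complex I here, although Ndufa4 itself was later assigned to complex IV. Ndufa4l2 had 4.01 and 5.47 TPM in DEN+CCl4, 3.24 and 4.01 TPM in DWYG-M, 1.78 and 2.81 TPM in DWYG-H, and 0.51 and 1.13 TPM in control livers. These levels rest on 32 and 47 reads in DEN+CCl4, 27 and 34 in DWYG-M, 14 and 24 in DWYG-H, and 5 and 11 in control libraries. Its log2 fold change in DEN+CCl4 over control livers was 1.94 (SE 0.52, edgeR adjusted p = 0.0339), with no overlap between the groups. The call was lost without control replicate 1 (1.4, edgeR adjusted p = 0.164), control replicate 2 (2.67, 0.0630) or DEN+CCl4 replicate 2 (1.57, 0.133), and without either DWYG-M library (1.94 in both fits, 0.0521 and 0.0527). Ndufa4, one of the 2 members with the highest mean TPM, had 1233 and 842 TPM in DEN+CCl4, 1207 and 1255 TPM in DWYG-M, 1332 and 1238 TPM in DWYG-H, and 1292 and 871 TPM in control livers. On the TMM scale Ndufa4 fell by 0.64 (SE 0.19, edgeR adjusted p = 0.0462), and on TPM it was at −0.06.

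Cox7a2l, a relative of Cox7a2 that joins complexes III and IV into supercomplexes, lay apart from the family's median. C57BL/6 mice are known to carry a shortened form of its protein. It had 82.4 and 82.7 TMM-scaled CPM in DEN+CCl4, 86.7 and 87.5 in DWYG-M, 85.7 and 80.0 in DWYG-H, and 84.1 and 77.4 in control livers. DEN+CCl4, DWYG-H and control libraries overlapped, and both DWYG-M libraries lay above them. The log2 fold change in DEN+CCl4 over control livers was 0.03 (SE 0.13, edgeR adjusted p = 0.892). It turned to −0.02 without the filter on low values and −0.03 with the authors' factors. In TPM it had 181 and 155 in DEN+CCl4, 165 and 160 in DWYG-M, 160 and 152 in DWYG-H, and 119 and 98.1 in control livers. On that scale limma gave a log2 fold change of 0.62 (adjusted p = 0.0177), where the median gene was at 0.50 and 45.4% of all genes were called higher.

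Atpif1, the inhibitor that binds ATP synthase and blocks its reverse reaction, rose on both scales although it lies outside the symbol rule. It had 40.8 and 47.3 TPM in DEN+CCl4, 29.6 and 29.7 TPM in DWYG-M, 30.9 and 27.1 TPM in DWYG-H, and 14.6 and 10.7 TPM in control livers. The values did not overlap between DEN+CCl4, the 4 DWYG libraries, and control. Its log2 fold change in DEN+CCl4 over control livers was 1.24 (SE 0.20, edgeR adjusted p = 0.00543). Without control replicate 2 it was 1.05 and did not pass (edgeR adjusted p = 0.0568). Against DEN+CCl4 it was at −0.45 in DWYG-M and −0.49 in DWYG-H, and neither passed.

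Tissue-restricted isoforms of complex IV had few reads. Cox6a2, Cox8b and Cox7a1 are the heart and skeletal muscle forms of complex IV subunits, Cox6b2 is the testis form and Cox4i2 the lung form. Cox6a2 had 0.48 and 17.8 TPM in DEN+CCl4 (2 and 81 reads), 0.47 and 0.23 TPM in DWYG-M, 0.24 and 0.67 TPM in DWYG-H, and 0.19 and 0.00 TPM in control livers. Cox8b had 2 and 35 reads in DEN+CCl4, 0 reads in the 4 DWYG libraries, and 3 and 0 reads in control livers. The high value of both genes came from DEN+CCl4 replicate 2, the library that held Acta1 and Ckm, so no fold change is given for them. Cox7a1 had 3.65 and 22.5 TPM in DEN+CCl4, 4.37 and 9.02 TPM in DWYG-M, 1.24 and 5.41 TPM in DWYG-H, and 12.2 and 10.9 TPM in control livers, again with its top value in that library. Cox4i2 stayed under 1 TPM in all 8 libraries. The common isoforms Cox6a1, Cox8a and Cox4i1 were at 827 to 1069 TPM, 603 to 812 TPM and 881 to 1064 TPM in the same libraries.

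**Figure D5:**
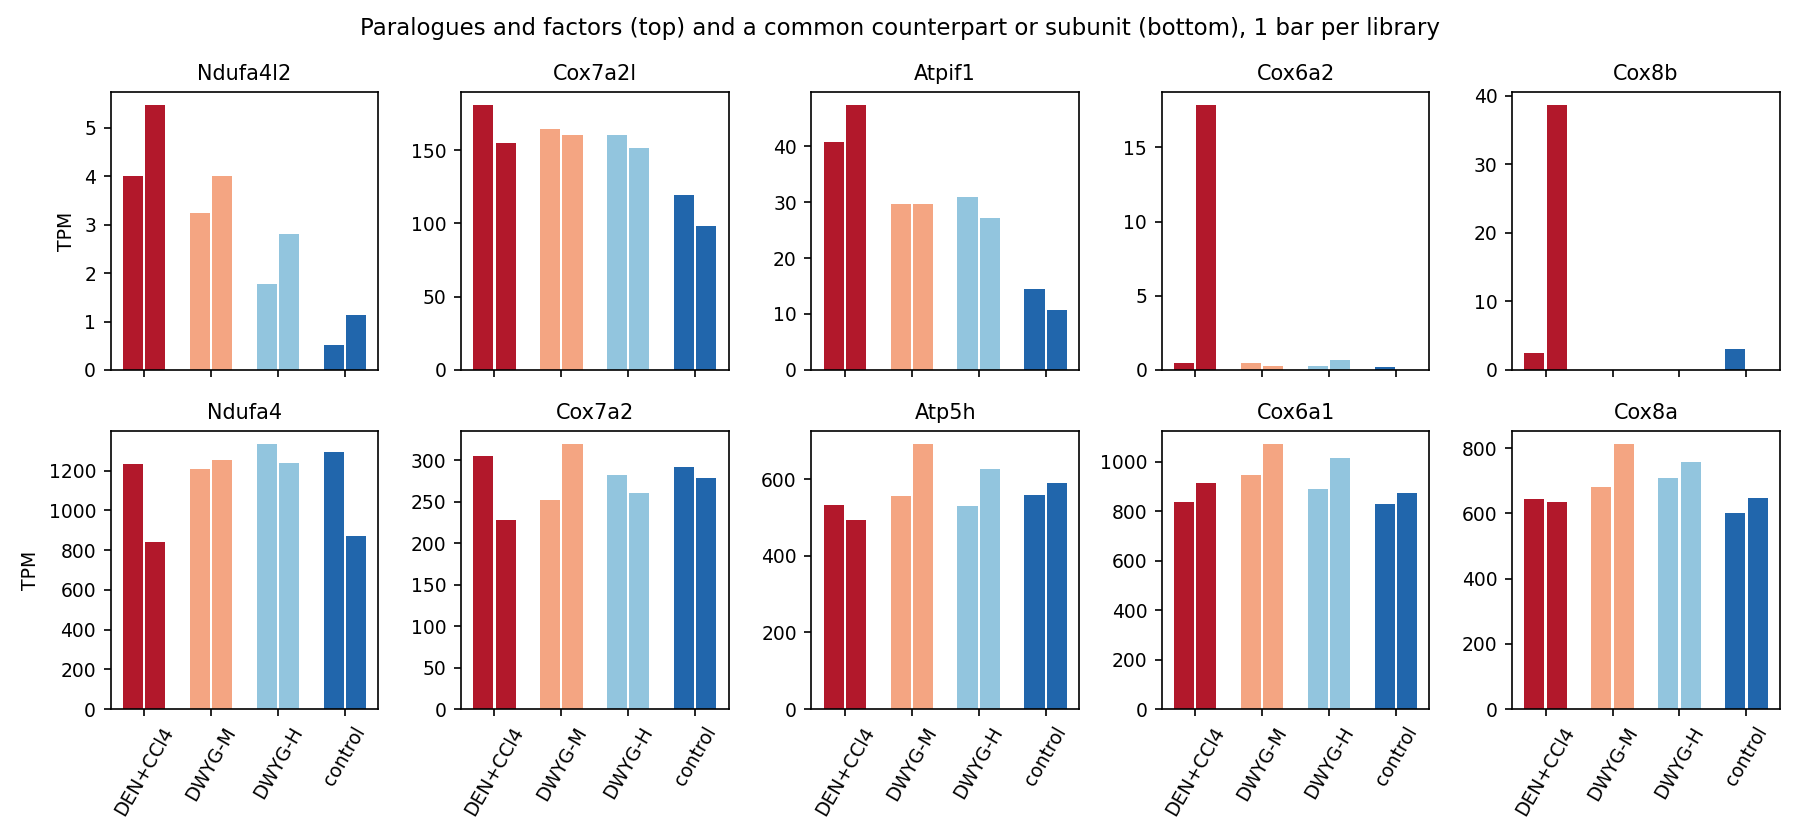
TPM per library (bars) of Ndufa4l2, Cox7a2l, Atpif1, Cox6a2 and Cox8b (top) and of Ndufa4, Cox7a2, Atp5h, Cox6a1 and Cox8a (bottom). Atpif1 is highest in the 2 DEN+CCl4 libraries, Ndufa4l2 is highest in DEN+CCl4 replicate 2 with the other DEN+CCl4 library level with DWYG-M replicate 2, and Cox6a2 and Cox8b are high in DEN+CCl4 replicate 2 alone.

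To compare members with each other, each TPM was divided by the median member of its own library, which is itself a scaling. Of the 81 members with reads in all libraries, 13 were below both control libraries in all 6 libraries of mice given DEN and CCl4, 4 were above and 64 overlapped. Of the 11492 tested genes with reads in all libraries, 3.02% were below and 26.5% above in the same way. Ndufb3 was at −1.42 and −1.55 (log2 ratio to the median member) in DEN+CCl4, −1.47 and −1.45 in DWYG-M, −1.47 and −1.34 in DWYG-H, and −0.97 and −1.16 in control livers. The other 12 lower ones were Ndufb8, Ndufb9, Ndufb10, Ndufb11, Ndufa3, Ndufs7, Ndufv1, Uqcr10, Cox5b, Atp5h, Atp5g3 and Atp5k, and the 4 higher ones were Ndufa4l2, Ndufa7, Sdhc and Atp5g2. With libraries scaled to the median member, a fit added after the data were seen, edgeR called only Ndufa4l2 (log2 fold change 2.48, adjusted p = 0.00538). Of all genes, 33.8% were called higher and 1.2% lower. By construction this scaling holds the median member near 0 (−0.01), which left the median gene at 0.53. The shares of all genes in this paragraph are therefore not a like measure for the members.

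Promoters of 68 of the 85 members were found in a RefSeq table (build GRCm38.p6), each with 250 bases before and 50 after the gene start. They were searched on both strands for the NRF1 word (GCGCA, any base N, then GCGC), the ETS word CCGGAAG and the YY1 word AAGATGGCG, and no match overlapped one of another motif. The NRF1 word was in 17 of the 68 promoters (25%), against 9.13% of promoters of all genes in the table and 5.19% of all promoters. The ETS word was in 17 (25%), against 16.2% and 9.93%, and the YY1 word was in 7 (10.3%), against 2.76% and 1.64%. Both the NRF1 and the ETS word were in 4 promoters, those of Atp5h, Atp5k, Cox6a1 and Sdhd, and 33 promoters held none of the 3 words. As examples, the promoters below are those of Atp5h and Sdhd, which fell and hold both words, and of Ndufs6 and Cox7a2l, which did not pass. Ndufs6 holds the NRF1 and YY1 words, and Cox7a2l holds none. Other members differ from these examples. Atp5k and Cox6a1 hold both words and did not pass, and Ndufb3 and Ndufb11 fell and hold none of the words. Capitals mark the motif matches, on either strand.
Atp5h: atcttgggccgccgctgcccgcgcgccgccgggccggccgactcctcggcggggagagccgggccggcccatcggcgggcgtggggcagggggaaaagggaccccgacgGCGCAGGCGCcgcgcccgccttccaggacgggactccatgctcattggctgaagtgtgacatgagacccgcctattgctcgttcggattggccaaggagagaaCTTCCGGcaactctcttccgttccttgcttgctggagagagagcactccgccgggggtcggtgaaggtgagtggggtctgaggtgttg
Sdhd: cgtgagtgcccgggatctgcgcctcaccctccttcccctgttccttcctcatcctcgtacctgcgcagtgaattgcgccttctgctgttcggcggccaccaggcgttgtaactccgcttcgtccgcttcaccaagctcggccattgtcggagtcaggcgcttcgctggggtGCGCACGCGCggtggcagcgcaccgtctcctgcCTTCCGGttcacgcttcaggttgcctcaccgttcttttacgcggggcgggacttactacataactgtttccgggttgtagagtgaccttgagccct
Ndufs6: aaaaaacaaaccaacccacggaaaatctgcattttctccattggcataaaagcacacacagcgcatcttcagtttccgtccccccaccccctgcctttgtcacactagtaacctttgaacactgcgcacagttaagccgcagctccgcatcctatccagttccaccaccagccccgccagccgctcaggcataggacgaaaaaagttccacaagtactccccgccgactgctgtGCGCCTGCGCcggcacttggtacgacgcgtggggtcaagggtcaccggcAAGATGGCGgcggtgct
Cox7a2l: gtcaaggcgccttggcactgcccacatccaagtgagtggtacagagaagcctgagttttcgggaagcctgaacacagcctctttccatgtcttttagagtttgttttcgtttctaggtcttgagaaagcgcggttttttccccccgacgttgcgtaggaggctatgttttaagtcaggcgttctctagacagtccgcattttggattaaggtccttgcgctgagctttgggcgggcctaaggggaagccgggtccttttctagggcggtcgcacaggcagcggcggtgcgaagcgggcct
They lie at chr11:115419870-115420169 (Atp5h), chr9:50603800-50604099 (Sdhd), chr13:73328433-73328732 (Ndufs6) and chr17:83514284-83514583 (Cox7a2l), all on the minus strand of GRCm38.p6, and are written 5′ to 3′ along the gene. The NRF1 match begins at −141 from the start in Atp5h, −79 in Sdhd and −16 in Ndufs6, and the ETS match begins at −38 in Atp5h and −46 in Sdhd. The YY1 match of Ndufs6 begins 33 bases after the start. Members with the NRF1 word had a median log2 fold change of −0.55 in DEN+CCl4 over control livers on the TMM scale, and those without it −0.56. The medians were −0.57 with and −0.55 without the ETS word, and −0.59 with and −0.55 without the YY1 word. These differences between medians were not tested.

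In DWYG-M livers against DEN+CCl4 livers, respiratory chain genes were higher on both scales without any passing the test. The comparison shares its DEN+CCl4 libraries with the one above, so a low value there enters both. The median log2 fold change was 0.29 on the TMM scale (all genes −0.02) and 0.20 on TPM (all genes −0.13). Of 82 members, 78 were positive on the TMM scale and 76 on TPM. EdgeR called 0 of 82 members, where 0.00862% of all genes were called higher and 0.0% lower, and DESeq2 (1.15% of all genes lower, 0.62% higher) and limma on TPM (0.0172% lower, 0.00862% higher) called 0 as well. At an unadjusted p under 0.05 there were 11 higher and 2 lower members, against 5.43% and 7.22% of all genes. Both DWYG-M libraries were above both DEN+CCl4 libraries for 44 members in TMM-scaled CPM (20.4% of all genes, with 20.2% below) and for 35 in TPM (8.67%). DWYG-M replicate 2 carried much of this: the median was 0.12 without it and 0.44 without DWYG-M replicate 1. The shift was not particular to these genes. On the TMM scale hepatocyte markers had a median of 0.47 (0.35 on TPM). Complex I assembly factors and tricarboxylic acid cycle genes were at 0.32 each, and mitochondrial ribosomal proteins at 0.16.

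The members with the smallest p in DWYG-M against DEN+CCl4 were Cox6b2, Sdhb and Ndufb6. Sdhb, whose values are given above, had a log2 fold change of 0.64 (SE 0.20, edgeR adjusted p = 0.289), with the DWYG-M libraries above the DEN+CCl4 ones. Ndufb6, a membrane arm subunit of complex I, had 39.8 and 46.2 TMM-scaled CPM in DWYG-M and 32.7 and 31.0 in DEN+CCl4 livers. Its log2 fold change was 0.43 (SE 0.15, edgeR adjusted p = 0.306). Cox6b2 had 3 and 1 reads in DWYG-M and 10 and 16 in DEN+CCl4 libraries, with a fitted log2 fold change of −2.54 (SE 0.74, edgeR adjusted p = 0.281). By complex, the median log2 fold changes were 0.26 for complex I, 0.48 for complex II, 0.35 for complex III, 0.26 for complex IV and 0.34 for complex V.

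In DWYG-H livers against DEN+CCl4 livers no member passed the test. This comparison uses the same 2 DEN+CCl4 libraries as the one of DWYG-M. The median log2 fold change was 0.25 on the TMM scale (all genes −0.01) and 0.15 on TPM (all genes −0.11). Of 82 members, 78 were positive on the TMM scale and 73 on TPM. EdgeR called 0 members, where 0.0% of all genes were called in either direction. DESeq2 (0.707% of all genes lower, 0.327% higher) and limma on TPM (0.0431% lower, 0.0% higher) also called 0. At an unadjusted p under 0.05 edgeR gave 3 higher and 1 lower, against 3.50% and 4.99% of all genes. Both DWYG-H libraries were above both DEN+CCl4 libraries for 51 members in TMM-scaled CPM (17.2% of all genes) and for 29 in TPM (7.67%). Leaving out 1 library kept the median between 0.18 and 0.30. Here too hepatocyte markers were higher, with a median of 0.42 on the TMM scale (0.34 on TPM). Complex I assembly factors were at 0.25, tricarboxylic acid cycle genes at 0.20 and mitochondrial ribosomal proteins at 0.12. Cox7c was at 0.39 (SE 0.14, edgeR adjusted p = 0.518) and Cox7b at 0.46 (SE 0.18, edgeR adjusted p = 0.556), both with DWYG-H libraries above those of DEN+CCl4 mice. Cox8b also had one of the smallest p-values, and its reads came from DEN+CCl4 replicate 2. The complex medians were 0.21 for complex I, 0.37 for complex II, 0.29 for complex III, 0.19 for complex IV and 0.28 for complex V.

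Between the doses, DWYG-H and DWYG-M livers differed by a median of −0.06 (all genes 0.00), which ranged from −0.21 without DWYG-M replicate 1 to 0.11 without DWYG-M replicate 2. EdgeR called 0 members (0.0% of all genes in either direction) and DESeq2 called 0 (0.0258% lower, 0.0172% higher). By edgeR, 1 was higher and 0 were lower at an unadjusted p under 0.05, against 1.15% and 0.517% of all genes. The smallest p-values were those of Cox6b2, with 10 and 7 reads in DWYG-H and 3 and 1 in DWYG-M, of Ndufa4l2 at −0.67 (SE 0.48) and of Uqcrfs1 at −0.19 (SE 0.18). Uqcrfs1 had 151 and 166 TMM-scaled CPM in DWYG-H and 159 and 202 in DWYG-M livers. Each had an edgeR adjusted p of 1.0. A p that misses the threshold does not show that the doses act alike.

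Against control livers, the medians of the treated groups lay above that of DEN+CCl4 on both scales. The side of 0 on which they lay depended on the scale, below 0 on the TMM scale and above 0 on TPM. The median log2 fold change on the TMM scale was −0.25 in DWYG-M and −0.28 in DWYG-H (all genes −0.01 in both), and on TPM it was 0.24 and 0.20 (all genes 0.40 and 0.41). EdgeR called 0 members in DWYG-M (0.603% of all genes lower, 4.35% higher), and DESeq2 called 0 (1.4% lower, 7.28% higher). At an unadjusted p under 0.05 edgeR gave 7 lower and 1 higher, against 5.24% and 13.9% of all genes. In DWYG-H edgeR called 0 (1.09% lower, 6.59% higher) and DESeq2 called 0 (2.51% lower, 9.43% higher). The unadjusted counts by edgeR there were 12 lower and 0 higher, against 7.67% and 16.1% of all genes. On TPM limma called 2 members, Ndufa4l2 and Cox7a2l, higher in each treated group, where 22.9% of all genes in DWYG-M and 28.3% in DWYG-H were called higher. Ndufb3 was at −0.54 in DWYG-M (SE 0.16, edgeR adjusted p = 0.109) and −0.55 in DWYG-H (SE 0.16, edgeR adjusted p = 0.0817).

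Other genes of mitochondrial energy metabolism were counted in the same way on the TMM scale, where 7.12% of all genes were called lower and 15.1% higher. Of complex I assembly factors, 5 of 16 tested fell in DEN+CCl4 against control livers (median −0.42), among them Ecsit at −0.92 and Ndufaf1 at −0.64. Assembly factors of complexes II to V had 6 of 39 lower (median −0.35), with Higd2a at −0.70 and Uqcc3 at −0.83. Of 18 genes for cytochrome c and coenzyme Q synthesis, 5 fell and 1 rose (median −0.48), with Pdss2 at −0.84 and Coq8b, a kinase-like coenzyme Q protein, at 1.55. Coq8b had 23.2 and 44.8 TPM in DEN+CCl4 and 7.50 and 7.98 TPM in control livers. Its higher value came from the library that held muscle transcripts, and its log2 fold change was 0.89 to 2.02 with 1 library left out. Mitochondrial ribosomal proteins had 10 of 78 lower (median −0.37), with Mrpl47 at −1.0 and Mrpl49 at −0.60, and the tricarboxylic acid cycle had 2 of 17 lower and 1 higher (median −0.36), with Sucla2 at −0.88 and Idh3b at −0.65. On TPM each of these medians was above 0, between 0.12 and 0.24, and below the all-gene median of 0.50.

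Import, chaperone and carrier genes had 1 of 18 lower (Timm44, −0.53, turning to 0.06 on TPM) and 1 higher (median −0.30). The one that rose was Slc25a4, the muscle form of the ADP/ATP carrier, with 18.9 and 40.2 TPM in DEN+CCl4 and 5.56 and 3.52 TPM in control livers; its higher value came from the library that held muscle transcripts. Uncoupling and mitophagy genes had 1 of 6 lower (Bnip3, −0.81) and 1 higher (Ucp2, 1.28, with 102 and 104 TPM in DEN+CCl4 and 25.3 and 30.7 TPM in control livers). Of 15 transcription regulators, only Myc was called, at 3.58 (21.5 and 5.06 TPM in DEN+CCl4, 0.77 and 0.63 TPM in control livers; edgeR adjusted p = 0.0107). The regulators that give the motifs their names did not pass: Nrf1 was at 0.09, Gabpa at −0.52 and Yy1 at −0.19 (edgeR adjusted p = 0.729, 0.199 and 0.454), and the coactivator Ppargc1a was at 0.76 (edgeR adjusted p = 0.195). Cytosolic ribosomal proteins had 2 of 77 higher, Rps12 at 0.79 and Rps15a at 0.52, and 0 lower (median 0.20, and 0.77 on TPM). By the same test 7.12% of all genes were called lower and 15.1% higher. Single calls in lists of 18, 6 and 15 genes are too few to set these apart from those shares. For cytosolic ribosomal proteins, 2 of 77 higher was a smaller share than that of all genes.

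Markers of other cell types moved with the comparison. In DEN+CCl4 against control livers, 12 of 15 stellate cell and myofibroblast markers were called higher, 7 of 13 macrophage markers higher and 1 lower, 8 of 9 cholangiocyte markers higher and 8 of 8 proliferation markers higher. Of all genes tested, 15.1% were called higher and 7.12% lower. The markers with the smallest p were Col3a1 at 3.59 and Vim at 2.00 (stellate), Gpnmb at 8.07 and Cd14 at 3.72 (macrophage), Tspan8 at 6.92 and Spp1 at 3.08 (cholangiocyte), and Birc5 at 3.56 and Cdk1 at 3.49 (proliferation). EdgeR called 0 of 17 hepatocyte markers (median −0.14, and 0.38 on TPM). At an unadjusted p under 0.05 it gave 2 lower and 0 higher, against 14.9% and 21.1% of all genes. Those 2 were Hpd at −1.06 and Ttr at −0.66 (−0.45 and −0.09 on TPM), with edgeR adjusted p = 0.0722 and 0.0986. DESeq2 called 3 lower, against 8.36% of all genes, and limma on TPM called 4 higher, against 45.4% of all genes. No marker was at 0 in all libraries. Stellate markers summed to 651 and 684 TPM in DEN+CCl4, 407 to 458 TPM in DWYG-M, 402 to 426 TPM in DWYG-H, and 148 to 155 TPM in control livers. Cholangiocyte markers summed to 634 and 890 TPM in DEN+CCl4, 358 to 479 TPM in DWYG-M, 503 to 504 TPM in DWYG-H, and 52.7 to 57.5 TPM in control livers. Of the remaining lists, 4 of 7 neutrophil, 2 of 10 endothelial and 1 of 4 lymphocyte markers were called higher, and 1 of 5 erythroid markers, Alas2 at −1.44, was called lower. The endothelial, lymphocyte and erythroid counts rest on 1 or 2 genes, too few to set them apart from the shares of all genes. Their part in the lower level of respiratory chain genes was not tested.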

How the data were processed

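RNA sequencing of 8 mouse livers was analysed from 1 deposited table of 17164 genes. Per the labels' protocols, an Ambion kit gave the RNA and SMART-Seq mRNA LP (Takara) the libraries. The submitters' processing notes name GRCm39 as the build; for aligner, counter, annotation and strandedness: not given in the sources used here. Per the file headers, every library has 4 columns: estimated counts, FPKM, TPM and normalized counts. The deposited estimated counts were whole numbers (within 0.005) for 89.8% to 91.5% of values; the other values had fractions, so they were treated as estimated counts and rounded. FPKM values deposited by the authors are scaled to gene length and library size. TPM values deposited by the authors sum to 1000000 in each library. The normalized counts, a signal deposited by the authors, served only to read off 1 factor per library. The 16 deposited columns of group means were not used, and 0 columns could not be matched to a sample.

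The 11606 genes that reached an FPKM of 1 in 2 or more libraries were tested with edgeR 4.0.16 (R 4.3.3), TMM scaling, and glmQLFit and glmQLFTest on 1 model of 4 groups (4 residual degrees of freedom, common dispersion 0.0377). A call was a Benjamini-Hochberg adjusted p under 0.05 over all genes tested in a comparison; SE is the absolute log2 fold change over the square root of F. Limma 3.58.1 on log2(TPM + 1) or log2(FPKM + 1), so that fold changes of low genes are understated, and DESeq2 1.42.0 were alternatives, as were other scalings, no filter and leaving out each library. The tests were checked on simulated counts. Reads shared between near-identical copies, such as Ndufb4 and Ndufb4c or processed pseudogenes, make such genes uncertain. Depth per library (17345627 to 19191382 reads) leaves members with few reads imprecise, and the 2 livers of a group limit every test.

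Same-numbered libraries did not deviate together in every pair of groups, so replicate numbers were not used as a block in the main analysis. Genes named with values are, in each complex, the 3 with the smallest p in DEN+CCl4 against control, and members called higher there. Also named are the 3 with the smallest p in each DWYG comparison, isoforms with their common forms, Atpif1 and Cox7a2l, and the 2 most abundant members. The 2 genes of smallest p are given for most other lists, but not for lymphocyte, neutrophil and endothelial markers. Other members are given as summaries or with values where they complete a complex, and those were chosen after their values were seen. The members and lists were chosen with earlier results of these data known. All 85 members matched the RefSeq gene table (GRCm38.p6) by Entrez ID, which was used for names and promoters.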

Additional observations from a re-analysis of the deposited data

How the results depend on the processing

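In DEN+CCl4 against control livers the count of lower members was 31 in the main analysis. It was 1 with library totals and no TMM, 1 with limma on log2(FPKM + 1) or log2(FPKM + 0.1), 0 with limma on log2(TPM + 1), 0 with libraries scaled to the median member and 3 with the 2 groups alone, and 0 to 25 when 1 library was left out. Over all genes, 826 were called lower in the main analysis and 198 with library totals. That count was 222 with log2(FPKM + 1), 184 with log2(FPKM + 0.1) and 135 on TPM. It was 139 with libraries scaled to the median member and 325 with the 2 groups alone. The drop in lower members thus went with a drop over all genes. Fits that left 1 library out also changed the calls over all genes, so the range of 0 to 25 is not compared. The count of higher members was 1 in the main analysis (1756 of all genes), and became 2 without a filter on low values (Cox6a2 added, 2217 of all genes). It was 3 on TPM (5272), 2 on log2(FPKM + 1) (2501) and 0 with the 2 groups alone (1344), and it changed in some fits that left 1 library out. Median fold changes (log2) were −0.28 with library totals, 0.02 on TPM, −0.30 with either FPKM pseudocount and −0.01 with libraries scaled to the median member. Scaled to the median member, the medians were −0.02 in DWYG-M and 0.00 in DWYG-H against DEN+CCl4, by construction of that scaling.

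Against control, DWYG-M had 2 higher members on TPM (2661 of all genes) and 1 with either FPKM pseudocount (690 of all genes with 1, 1077 with 0.1). DWYG-H had 2 on TPM (3280 of all genes). Medians there were −0.04 (DWYG-M) and −0.06 (DWYG-H) with library totals, 0.24 and 0.20 on TPM, −0.01 and −0.07 with either FPKM pseudocount, and −0.01 and 0.02 scaled to the median member. Leaving out 1 library gave medians of 0.12 to 0.44 in DWYG-M against DEN+CCl4, −0.40 to −0.09 in DWYG-M against control and −0.21 to 0.11 in DWYG-H against DWYG-M; a lone library was assumed to vary like the other groups. Reversed values in DEN+CCl4 against control were, on TPM, 0.01 (Cox4i1), 0.04 (Cox6a1), 0.17 (Cox6b1), 0.03 (Cox8a), 0.16 (Ndufab1) and 0.06 (Timm44); scaled to the median member, 0.19 (Cox7a1), 0.01 (Cox6a1), 0.15 (Cox6b1), 0.13 (Ndufab1) and 0.02 (Timm44); −0.02 without a filter and −0.03 with the authors' factors (Cox7a2l). Leaving out 1 library gave ranges across 0 for Cox7a1, Cox7a2l and Cd79a (−2.35 to 0.54, −0.06 to 0.09 and −0.21 to 1.26, in that order). The cause of these changes was not tested beyond the scaling's own construction.

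Replicate numbers did not pair the libraries: correlations of same-numbered deviations ran from −0.143 to 0.255 over 6 pairs of groups. With a replicate block, 46 members were lower in DEN+CCl4 against control (31 shared with the main count), where 929 of all genes were. In DWYG-H against control 2 were lower, Ndufb3 and Ndufs7, where 140 of all genes were. The block moved no other count of members by over 1.5 times. DESeq2's size factors, DESeq2's own test, removal of Alb and Mup genes and the authors' factors gave 32 to 38 lower members in DEN+CCl4 against control, where 815 to 1056 of all genes were lower. With 2 livers a group, the smallest fall called among members was 0.47 on the log2 scale.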
